A study of Mus musculus with 12 samples.

Results

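A set of immediate early genes was followed across control and partially reprogrammed melanoma cells with and without MEK inhibition. The members are Egr1, Egr2, Egr3, Fos, Fosl1, Jun, Junb, Myc, Ier2 and Ier3, 10 of the 18193 genes with a value, and they were read by 14 of the 34945 probe sets that the array annotation gives to a single gene. For each gene the brightest probe set on average, over all 12 arrays, gave the value, and the other probe set of Egr2, Egr3, Fosl1 and Jun is described beside it. The cells were C790, a mouse melanoma cell line with mutant Nras, measured on Affymetrix Mouse Genome arrays with 3 arrays in each of 4 groups: −dox DMSO, −dox trametinib, +dox DMSO and +dox trametinib. All cells, the −dox controls included, carried a doxycycline-inducible lentiviral vector for Oct4, Klf4 and Sox2 with a blasticidin resistance gene, and a second vector with the M2 transactivator and mCherry. The +dox cells received doxycycline and blasticidin selection, and the −dox cells were kept without doxycycline. Whether the −dox cells were also selected with blasticidin is not given in the sources used here. All were taken at day 20 after 72 h with DMSO, the solvent, or trametinib, an inhibitor of the kinase MEK. The dose of trametinib on the arrays is not given in the sources used here. Myc was not among the vector's factors.

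Immediate early genes are switched on within minutes of a growth signal without new protein synthesis. In cells with an active RAS protein, RAF, MEK and ERK form a kinase cascade, and ERK phosphorylates ETS-domain proteins such as ELK1, which sit with serum response factor (SRF) at serum response elements in the promoters of Fos and Egr genes. FOS and JUN family proteins pair into the AP-1 factor, EGR proteins are zinc finger factors held in check by NAB corepressors, and MYC pairs with MAX to drive genes of ribosome production and growth. Not all members are DNA-binding factors: IER3 is a stress-induced regulator of cell survival.

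Promoter windows from RefSeq (GRCm38.p6, 250 bases before and 50 after an annotated start) were at hand for 5 of the 10 members, Egr2, Fos, Jun, Junb and Ier3. They are shown for Egr2, which fell in both cell states, for Fos, and for Jun and Junb, whose main probe sets did not fall. Capitals mark the serum response element (CArG box) and TGACG, the core of the cyclic AMP response element, on either strand.

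Egr2, chr10:67537619-67537918, plus strand: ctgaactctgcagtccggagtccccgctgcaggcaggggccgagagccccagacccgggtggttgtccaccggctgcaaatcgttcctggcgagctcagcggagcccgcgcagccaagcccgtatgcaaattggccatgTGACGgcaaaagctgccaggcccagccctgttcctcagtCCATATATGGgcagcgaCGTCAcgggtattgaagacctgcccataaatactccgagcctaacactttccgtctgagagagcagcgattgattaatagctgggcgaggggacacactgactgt
Fos, chr12:85473640-85473939, plus strand: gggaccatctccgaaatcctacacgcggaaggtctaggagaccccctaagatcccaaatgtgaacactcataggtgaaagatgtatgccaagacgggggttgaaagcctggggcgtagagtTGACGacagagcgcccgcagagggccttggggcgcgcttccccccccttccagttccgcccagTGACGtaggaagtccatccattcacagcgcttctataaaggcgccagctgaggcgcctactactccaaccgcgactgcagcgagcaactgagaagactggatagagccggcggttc
Jun, chr4:95052173-95052472, minus strand: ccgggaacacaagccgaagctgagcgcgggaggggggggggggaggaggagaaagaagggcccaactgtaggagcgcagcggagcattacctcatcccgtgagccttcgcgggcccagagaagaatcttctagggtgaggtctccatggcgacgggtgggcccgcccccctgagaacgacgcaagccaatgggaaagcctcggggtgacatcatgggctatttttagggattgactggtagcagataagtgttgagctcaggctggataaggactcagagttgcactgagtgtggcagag
Junb, chr8:84978699-84978998, minus strand: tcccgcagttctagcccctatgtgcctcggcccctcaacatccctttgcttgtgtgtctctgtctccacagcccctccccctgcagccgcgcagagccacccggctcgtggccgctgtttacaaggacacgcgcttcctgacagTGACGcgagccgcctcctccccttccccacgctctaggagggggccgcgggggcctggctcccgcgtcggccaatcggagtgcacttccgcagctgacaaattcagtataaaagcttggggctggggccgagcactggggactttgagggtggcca

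The Egr2 window held a CArG box 72 to 63 bases before the start and a TGACG core on each side of it. The box is rare, with a match in 1.63% of 32851 windows of this length, whereas TGACG was found in 20.8%. The Fos window held 2 TGACG cores and no CArG box within its 250 upstream bases, the Junb window held 1 TGACG core, and the Jun window neither. Of 5 Egr2 windows that RefSeq gives for alternative starts, the others with a CArG box were windows 2, 4 and 5. Windows 4 and 5 overlap the window shown and hold the same box, whereas the box of window 2 is a different one. The ETS core CCGGAA (14.9% of all windows) matched only in Egr2 window 2 among the member windows, with 3 matches of which a pair overlap. The Ier3 window, which is not shown, held neither box nor core, and Ier3 also fell in both cell states. These matches are letters in a window and no measurement of binding.

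Expression values are log2 intensities after RMA, so a difference of 1 is a 2-fold difference, and values of different probe sets cannot be ranked against each other. The arrays of a group correlated at 0.979 to 0.997 with each other. A mean under 4.87, the 95th percentile of 84 probe sets for receptors of smell, pheromones and taste, was taken as background, and a change into background is given as at least its distance from that level. The melanocyte genes Tyr, Tyrp1, Dct and Mlana were under background in all 4 groups, while Mitf (group means 6.97 to 8.37) and Sox10 (5.92 to 6.18) were above it, as was Pmel (5.84 to 5.97), so only part of the melanocyte markers was detected. Of the vector's factors, Pou5f1 (Oct4) had means of 4.63 and 5.45 in −dox and +dox DMSO cells, Klf4 of 9.45 and 9.30, and Sox2 of 7.40 and 5.87. Whether these probe sets read the vector's transcripts is not known here.

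Trametinib lowered most of the members in both cell states. Of the 10 members, 7 were lower, 0 higher and 3 not called in −dox cells (limma, adjusted p under 0.05 over all 18193 genes), where 10.8% of all genes were called lower and 11.6% higher. In +dox cells 6 were lower, 0 higher and 4 not called, against 12.5% of all genes called lower and 13.8% higher. Egr1, Egr2, Fosl1, Myc, Ier2 and Ier3 fell in both. At an unadjusted p under 0.05, limma gave 0 higher members in −dox and 1 in +dox cells, without a share of all genes at that threshold to compare. The median change of the members on the log2 scale was -1.70 in −dox and -1.16 in +dox cells, while all genes had medians of 0.06 and 0.02. Array for array, the trametinib values of 8 members lay wholly under the DMSO values in −dox cells (15.2% of all genes) and those of 0 wholly above (20.4%). In +dox cells 6 lay wholly under (18.6%) and 1 wholly above (22.1%). In whole cultures, fewer cells with a transcript and less of it per cell cannot be told apart. The 7 measured heat shock and stress genes, taken as a sign of handling, had array means of 9.90 to 10.04 in −dox DMSO and 10.13 to 10.42 in −dox trametinib cells, and of 9.88 to 10.17 and 10.16 to 10.40 in +dox cells. With trametinib 1 of the 7 was called higher and 0 lower in −dox cells, and 3 higher and 1 lower in +dox cells. Ddit3 was higher in both states (changes 0.83 and 1.24), and Hsph1 was lower in +dox cells (-1.19). The part of these 7 genes in the results was not tested.

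**Figure D1:**
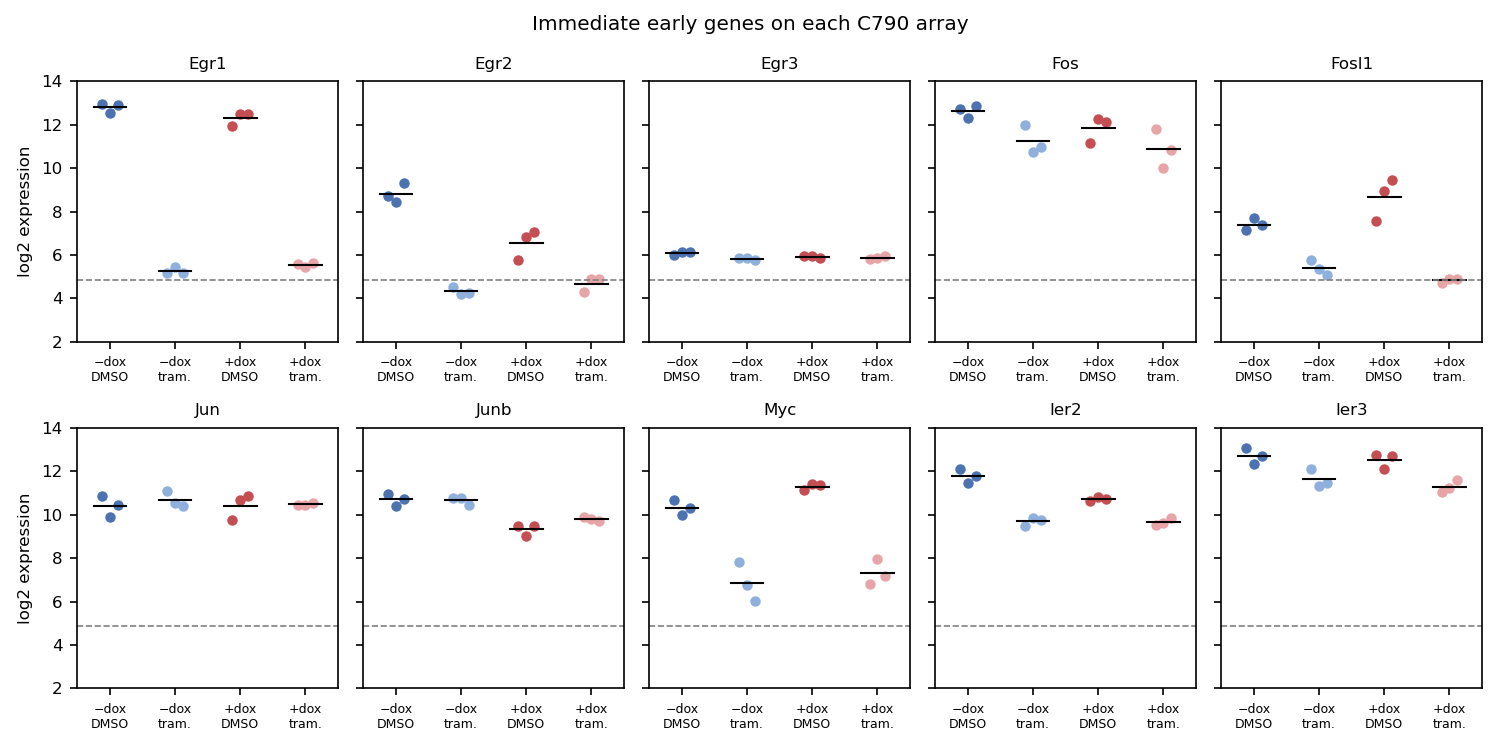
Log2 expression of the 10 members on each array; points are the 3 arrays of a group in the order of replicates 1, 2 and 3, bars their mean, and the dashed line is the background level of 4.87. Egr1 is at 11.94 or more on every DMSO array and at 5.63 or less on every trametinib array, Jun lies near the same level in all 4 groups, and Junb is lower on the +dox arrays.

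Of the EGR genes, Egr1 fell furthest among the members in both cell states on the chosen probe sets. Egr1 (1417065_at), a zinc finger factor that serum and ERK induce, read 12.96, 12.55 and 12.91 on the −dox DMSO arrays and 5.17, 5.45 and 5.18 on the −dox trametinib arrays. It read 11.94, 12.48 and 12.51 in +dox DMSO and 5.57, 5.44 and 5.63 in +dox trametinib cells. The DMSO and trametinib arrays were thus far apart in both states, and all trametinib arrays stayed a little above background. In −dox cells the change was -7.54 (standard error 0.17, adjusted p = 1.0e-09 from limma), which leaves 0.537% of the DMSO level on the linear scale of the array, and by fitted values, which for genes at background are not exact, it was the second largest fall among all genes. In +dox cells the change was -6.76 (standard error 0.17, adjusted p = 3.4e-09), the third largest by fitted values, with 0.921% left. Drug treatment accounted for 99.4% of the sum of squares of Egr1 over the 12 arrays, and the spread within groups for 0.243%.

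Egr2 (1427683_at), best known from Schwann cells and hindbrain, read 8.73, 8.46 and 9.30 in −dox DMSO and 4.53, 4.22 and 4.23 in −dox trametinib cells. In +dox cells it read 5.79, 6.83 and 7.05 with DMSO and 4.28, 4.90 and 4.88 with trametinib. Egr2 therefore started lower in +dox cells and ended at background in both. It fell at least 15.6-fold in −dox cells (log2 bound 3.96, adjusted p = 1.5e-05 from limma) and at least 3.22-fold in +dox cells (log2 bound 1.69, adjusted p = 0.0012). The other probe set (1427682_a_at) had means of 8.36, 4.43, 6.34 and 4.47 in −dox DMSO, −dox trametinib, +dox DMSO and +dox trametinib cells, and its falls of at least 11.3-fold and 2.78-fold also passed (adjusted p = 3.0e-05 and 8.6e-04).

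Egr3, a close relative of Egr1, gave unlike readings on its probe sets, nearly flat on the chosen one and a large fall on the other. The chosen one (1421486_at) read 5.98, 6.15 and 6.15 in −dox DMSO, 5.87, 5.85 and 5.76 in −dox trametinib, 5.95, 5.94 and 5.87 in +dox DMSO and 5.80, 5.86 and 5.97 in +dox trametinib cells. All its values lie between 5.76 and 6.15, and its trametinib changes of -0.27 (−dox) and -0.04 (+dox) did not pass (adjusted p = 0.052 and 0.79 from limma). Without −dox DMSO replicate 1 the −dox change was -0.32 and passed (adjusted p = 0.025). The other probe set (1436329_at) read 8.36, 8.69 and 9.20 in −dox DMSO and 3.03, 2.91 and 2.88 in −dox trametinib cells, and 8.29, 6.34 and 7.45 against 2.78, 2.62 and 2.70 in +dox cells. On it Egr3 fell at least 14.7-fold in −dox cells (log2 bound 3.88, adjusted p = 1.8e-05) and at least 5.62-fold in +dox cells (log2 bound 2.49, adjusted p = 3.0e-05). The flat probe set is the chosen one since the low trametinib values of the other brought its mean over the 12 arrays under that of the flat one. Which of them reads the Egr3 transcript was not tested, and the counts above rest on the flat one. With the other probe set in its place, 8 members fell in −dox and 7 in +dox cells.

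**Figure D2:**
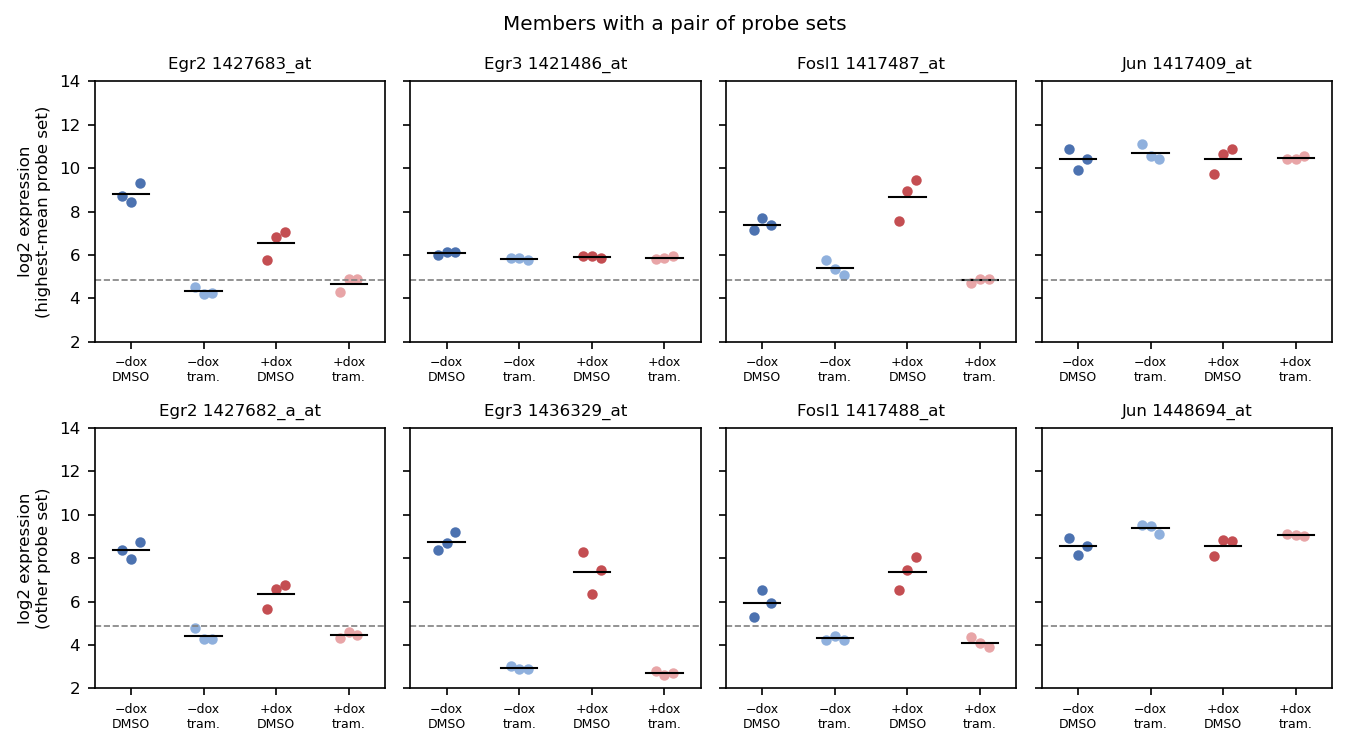
Log2 expression on both probe sets of Egr2, Egr3, Fosl1 and Jun, with the probe set of the highest mean above and the other below; points are arrays, bars group means, and the dashed line is the background level of 4.87. The probe sets of Egr2 and Fosl1 show alike group orders, whereas Egr3 is flat on the upper and falls from 8.75 to 2.94 with trametinib in −dox cells on the lower one.

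The FOS and JUN families, which together form AP-1, were split. Fos (1423100_at), the founding AP-1 gene, read 12.71, 12.33 and 12.87 in −dox DMSO and 11.98, 10.75 and 11.00 in −dox trametinib cells. Its +dox arrays read 11.18, 12.25 and 12.11 with DMSO and 11.80, 10.02 and 10.83 with trametinib. The −dox arrays were apart by drug and the +dox arrays overlapped, since replicate 1 was low with DMSO and high with trametinib. The change of -1.39 in −dox cells (standard error 0.45, adjusted p = 0.046 from limma) was just within the threshold, and the change of -0.96 in +dox cells did not pass (adjusted p = 0.15). The −dox call was lost when −dox DMSO replicate 1, 2 or 3 was left out (adjusted p = 0.091, 0.061 and 0.12), or −dox trametinib replicate 2 or 3 (0.15 and 0.13). It was also lost without replicate 2 or replicate 3 of +dox DMSO (0.054 and 0.06), and without +dox trametinib replicate 3 (0.062). It ended too with arrays centred on their median (adjusted p = 0.054, 6 members lower) and with probe sets tested one by one (0.055). Without +dox trametinib replicate 1 the +dox change was -1.42 and passed (adjusted p = 0.037). The difference of the Fos responses between the cell states was 0.43 with a 95% confidence interval of -0.96 to 1.82 (adjusted p = 0.85).

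Fosl1 (1417487_at), which encodes the FOS relative FRA1, read 7.14, 7.71 and 7.37 in −dox DMSO and 5.79, 5.37 and 5.06 in −dox trametinib cells. With dox the values were 7.55, 8.94 and 9.48 with DMSO and 4.72, 4.88 and 4.89 with trametinib. On this probe set the +dox cells thus held both the highest and the lowest values of Fosl1, the lowest with a group mean under background. With trametinib it fell by 2.00 (standard error 0.39, adjusted p = 0.0037 from limma) in −dox cells and at least 13.8-fold in +dox cells (log2 bound 3.79, adjusted p = 5.7e-05). The other probe set (1417488_at) fell at least 2.07-fold and 5.55-fold (adjusted p = 0.011 and 1.8e-04), with means of 5.92, 4.30, 7.34 and 4.11 in −dox DMSO, −dox trametinib, +dox DMSO and +dox trametinib cells.

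Jun (1417409_at), the partner of FOS proteins and a substrate of the stress kinase JNK, read 10.88, 9.92 and 10.45 in −dox DMSO, 11.10, 10.55 and 10.41 in −dox trametinib, 9.74, 10.66 and 10.88 in +dox DMSO and 10.45, 10.44 and 10.55 in +dox trametinib cells. The 4 groups overlapped, and 91.1% of its sum of squares lay within groups. With trametinib it changed by 0.27 in −dox cells (95% confidence interval -0.40 to 0.94, adjusted p = 0.59 from limma) and by 0.05 in +dox cells (-0.62 to 0.72, adjusted p = 0.94). The other Jun probe set (1448694_at) read 8.95, 8.13 and 8.57 in −dox DMSO and 9.52, 9.48 and 9.13 in −dox trametinib cells. There Jun rose by 0.83 (standard error 0.23, adjusted p = 0.03). On the +dox arrays it read 8.09, 8.86 and 8.78 with DMSO and 9.10, 9.06 and 9.0 with trametinib, a change of 0.48 that did not pass (adjusted p = 0.19). On this probe set the trametinib arrays lay wholly above the DMSO arrays in both states.

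Junb (1415899_at), a JUN relative that is often a weaker activator, read 10.98, 10.40 and 10.74 in −dox DMSO and 10.76, 10.77 and 10.45 in −dox trametinib cells. Among +dox cells the values were 9.46, 9.04 and 9.48 with DMSO and 9.89, 9.82 and 9.70 with trametinib. The −dox arrays overlapped by drug, and the +dox trametinib arrays all lay above the +dox DMSO arrays. The change of -0.05 in −dox cells did not pass (95% confidence interval -0.41 to 0.32, adjusted p = 0.88 from limma). In +dox cells the change was 0.48 (standard error 0.17, adjusted p = 0.057). On the chosen probe sets Junb was the only member whose arrays were wholly higher with trametinib, as were those of 22.1% of all genes. When the replicate number entered the fit as a block, the adjusted p of this Junb change was 0.038. It was also within the threshold without −dox DMSO replicate 1 (0.032) or 2 (0.036), arrays that serve this change only through the shared spread.

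Myc (1424942_a_at) read 10.67, 10 and 10.29 in −dox DMSO and 7.83, 6.78 and 6.02 in −dox trametinib cells. The +dox values were 11.12, 11.42 and 11.35 with DMSO and 6.82, 7.98 and 7.19 with trametinib. The trametinib arrays were far under the DMSO arrays in both states and differed most among themselves in −dox cells (SD 0.91, n = 3). The −dox change of Myc was -3.44 (standard error 0.40, adjusted p = 2.1e-04 from limma), which left 9.19% of the DMSO level. The +dox change was -3.97 (standard error 0.40, adjusted p = 5.7e-05), which left 6.4%.

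Ier2 (1416442_at), a small nuclear regulator of transcription, read 12.11, 11.45 and 11.79 in −dox DMSO and 9.48, 9.83 and 9.77 in −dox trametinib cells. In +dox cells it read 10.64, 10.81 and 10.75 with DMSO and 9.52, 9.62 and 9.85 with trametinib. Both states ended at a similar level from different starts. The −dox change of Ier2 was -2.09 (standard error 0.16, adjusted p = 2.8e-05 from limma) and its +dox change -1.07 (standard error 0.16, adjusted p = 6.7e-04).

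Ier3 (1419647_a_at) read 13.08, 12.34 and 12.72 in −dox DMSO, 12.13, 11.33 and 11.48 in −dox trametinib, 12.77, 12.10 and 12.71 in +dox DMSO and 11.04, 11.22 and 11.59 in +dox trametinib cells. Within each state its trametinib arrays lay under its DMSO arrays. Its changes were -1.07 in the −dox state (standard error 0.26, adjusted p = 0.013 from limma) and -1.24 in the +dox state (standard error 0.26, adjusted p = 0.0046). The −dox call was lost without −dox trametinib replicate 2 (change -0.91) and without replicate 3 (change -0.98), with adjusted p = 0.054 each.

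**Figure D3:**
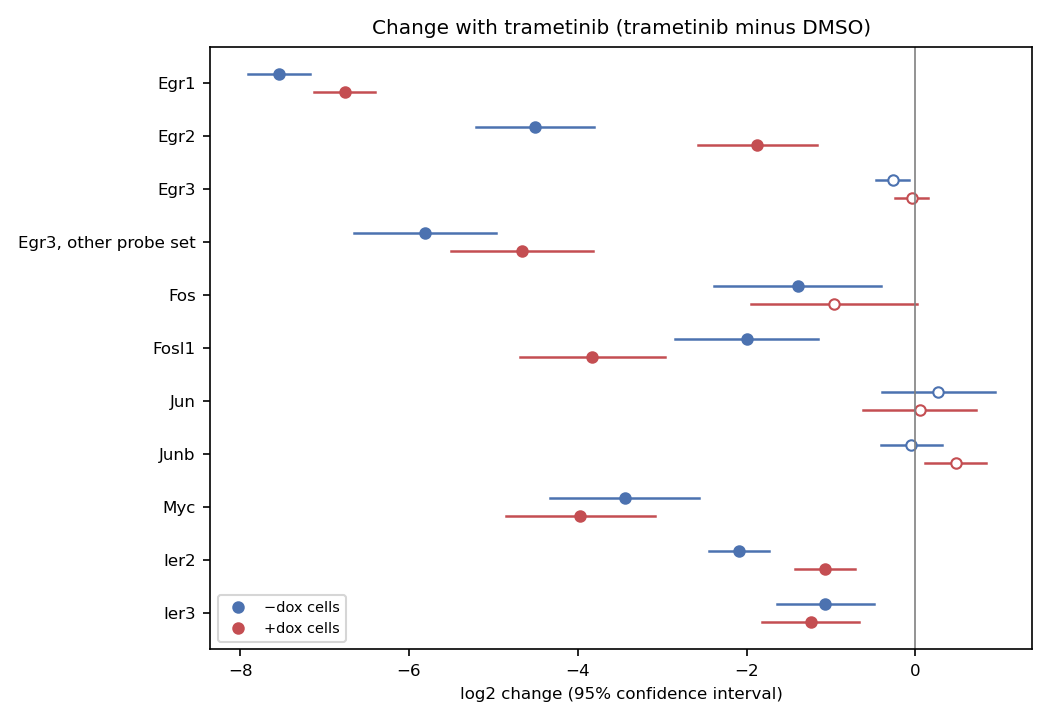
Log2 change with trametinib in −dox and +dox cells for each member and for the other Egr3 probe set; points are fitted changes over 3 arrays a group, lines 95% confidence intervals, and filled points passed the test at an adjusted p under 0.05. Egr1 lies at -7.54 and -6.76, Jun and Junb lie near 0, and the fitted points of the cell states lie furthest apart for Egr2 and Fosl1. Points whose trametinib mean is under background (Egr2, the other Egr3 probe set, and Fosl1 in +dox cells) are fitted values and not bounds.

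The responses of both cell states share no array and were compared by their difference, +dox minus −dox. Of the 10 members 1 passed, as higher, where 0.258% of all genes were called higher and 0.0715% lower. At an unadjusted p under 0.05, limma gave 4 higher members (Egr1, Egr2, Junb and Ier2) and 1 lower (Fosl1). The share of all genes at this looser threshold was not counted, so these numbers cannot be set against the shares above. The median difference of the members was 0.33 and that of all genes -0.02. For Egr2 the fitted difference was 2.63 (95% confidence interval 1.65 to 3.62, adjusted p = 0.039 from limma). Both its trametinib means were under background, so the falls are bounds, the fitted difference largely restates the DMSO difference of -2.27 given further on, and a difference of the responses themselves is not shown. The other Egr2 probe set gave 2.05 (adjusted p = 0.09). The call was lost without any of 9 of the 12 arrays, namely replicates 2 and 3 of −dox DMSO, −dox trametinib and +dox DMSO and all +dox trametinib arrays, with changes of 2.40 to 2.88 and adjusted p of 0.058 to 0.098. The difference of Ier2 was 1.02 (95% confidence interval 0.51 to 1.53, adjusted p = 0.11) and that of Egr1 0.78 (0.26 to 1.29, adjusted p = 0.2). Fosl1 had a difference of -1.83 (95% confidence interval -3.04 to -0.62, adjusted p = 0.2), and without +dox DMSO replicate 1 it was -2.38 and passed (adjusted p = 0.012).

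Under DMSO, 3 members differed between the cell states. Egr2, Junb and Ier2 were lower in +dox than in −dox cells, 0 members were higher and 7 did not pass, where 3.28% of all genes were called lower and 2.87% higher. At an unadjusted p under 0.05, limma gave 2 higher members, without a share of all genes at that threshold to compare. The median of the members was -0.34 and that of all genes 0.01. The +dox cells differ by doxycycline and the induced factors, which cannot be told apart here. Whether blasticidin selection also differed is not known, since the sources used here do not describe it for −dox cells. This comparison shares the DMSO arrays of both trametinib comparisons, so its values are not independent of those above. Egr2 fell by 2.27 (standard error 0.32, adjusted p = 0.0024 from limma), which left 20.7% of the −dox level, and its other probe set fell by 2.02 (adjusted p = 0.0039). Junb fell by 1.38 (standard error 0.17, adjusted p = 0.0011), with 83.9% of its sum of squares between −dox and +dox cells. Ier2 fell by 1.05 (standard error 0.16, adjusted p = 0.0047). These calls held without each array in turn.

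Fosl1 and Myc had their highest means in +dox DMSO cells without passing the test. For Fosl1 the difference was 1.25 (95% confidence interval 0.40 to 2.10, adjusted p = 0.088 from limma), and 1.42 on the other probe set (adjusted p = 0.057). Without +dox DMSO replicate 1, whose 7.55 lay among the −dox values, it was 1.80 and passed (adjusted p = 0.0023). For Myc all +dox arrays were above the −dox arrays, as for 11.3% of all genes, with a difference of 0.98 (95% confidence interval 0.09 to 1.86, adjusted p = 0.2). In a fit of the DMSO arrays alone its adjusted p was 0.044. The +dox DMSO arrays of Egr1, Egr2, Egr3, Fos, Junb and Ier2 lay wholly under the −dox arrays, 6 members against 11.1% of all genes. Egr1 differed by -0.50 (adjusted p = 0.11) and Fos by -0.79 (adjusted p = 0.37), while Jun and Ier3 overlapped. Replicate 1 of +dox DMSO had the lowest value of its group for Egr1, Egr2, Fos, Fosl1, Jun, Myc and Ier2.

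Under trametinib 1 member was lower in +dox cells, 0 were higher and 9 did not pass, with 1.42% of all genes called lower and 1.95% higher (limma, 0 higher also at an unadjusted p under 0.05). Junb fell by 0.86 between the states (standard error 0.17, adjusted p = 0.017 from limma). The call was lost without −dox trametinib replicate 2 (adjusted p = 0.081), +dox trametinib replicate 2 (0.058) or +dox trametinib replicate 3 (0.059). Ier2 differed by -0.03 with a 95% confidence interval of -0.39 to 0.33, against its difference of -1.05 under DMSO. Egr1 differed by 0.28 (adjusted p = 0.52). Fosl1 had a fitted difference of -0.58 (adjusted p = 0.6), with its +dox trametinib mean of 4.83 under background. Its +dox trametinib arrays all lay under the −dox trametinib arrays, as for 10.6% of all genes. On the other Fosl1 probe set both means were under background and the arrays overlapped. Egr2 and the other Egr3 probe set were under background in both groups and have no fold.

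**Figure D4:**
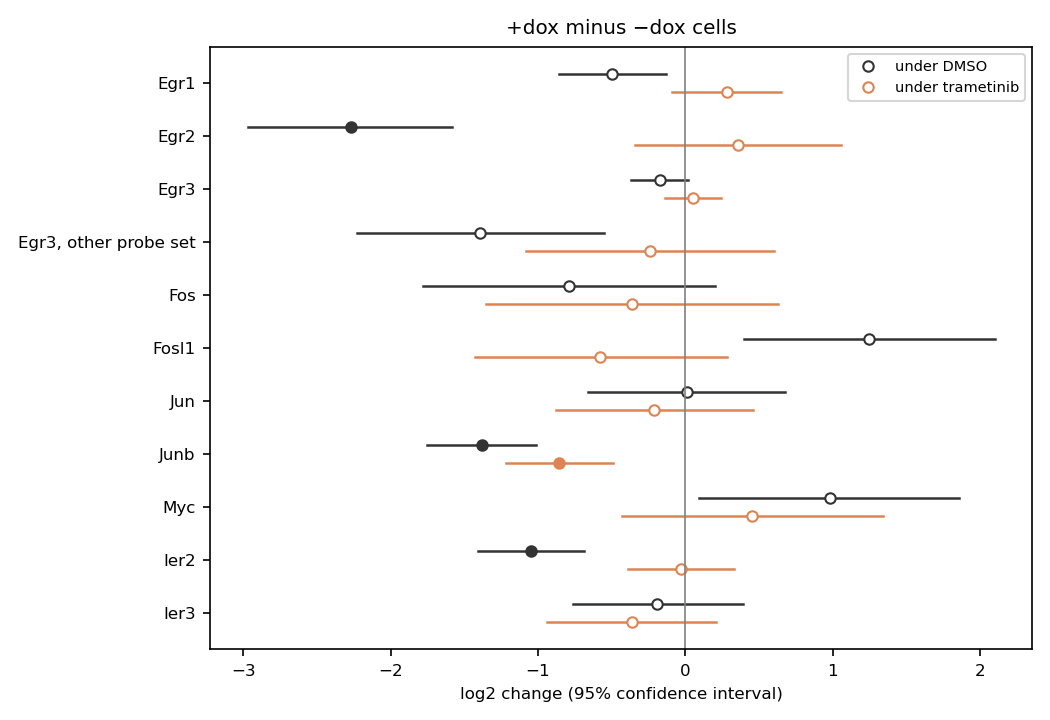
Log2 difference of +dox from −dox cells under DMSO and under trametinib; points are fitted differences over 3 arrays a group, lines 95% confidence intervals, and filled points passed the test at an adjusted p under 0.05. Junb lies under 0 in both, Egr2 and Ier2 pass under DMSO alone, and Fosl1 and Myc lie above 0 under DMSO; Egr2 and the other Egr3 probe set are at background in both groups under trametinib.

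Markers of other cell types moved with dox and with trametinib. The means of the 7 fibroblast markers over an array were 7.02 to 7.16 in −dox DMSO, 5.56 to 5.93 in +dox DMSO, 7.57 to 7.75 in −dox trametinib and 6.57 to 6.71 in +dox trametinib cells. Of them 4 were lower with dox under DMSO and 3 under trametinib (3.28% and 1.42% of all genes), while Col1a2, Lum and Thy1 were under background in all groups. With trametinib 3 were higher and 1 lower in −dox cells, against 11.6% and 10.8% of all genes. In +dox cells 3 were higher and 0 lower (limma, 0 lower also at an unadjusted p under 0.05), against 13.8% and 12.5%. Dcn changed by 1.45 and 3.33 and Col1a1 by 1.37 and 1.94 (adjusted p = 0.025, 1.6e-04, 0.0073 and 7.3e-04). The 5 leukocyte markers had array means of 4.21 to 4.79 in −dox DMSO and 4.75 to 5.52 in +dox DMSO cells, with Ptprc and Lyz2 under background in all groups. With trametinib 1 of the 5 was higher and 0 lower in −dox cells, namely Cd3e by 0.35 (adjusted p = 0.034 from limma). In +dox cells 0 were higher and 1 lower. There Itgam fell into background, by at least 0.73 (adjusted p = 0.013 from limma). With dox under DMSO 1 was higher and 0 lower, against 2.87% and 3.28% of all genes. Here Itgam rose out of background by at least 0.73 (adjusted p = 0.014). Of 3 keratinocyte markers 1, Krt10, was higher with trametinib in +dox cells (0.97, adjusted p = 0.001) and 0 were lower, while Krt14 was under background. Of 3 endothelial markers 1, Kdr, was higher with dox under DMSO (0.41, adjusted p = 0.049) and 0 were lower. The endothelial markers Pecam1 and Cdh5 were under background in all groups. The part of these markers in the members' trametinib and dox results was not tested.

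Relatives of the members moved in both directions with trametinib. For comparison with the lists that follow, 10.8% of all genes were called lower and 11.6% higher in −dox cells. In +dox cells these shares were 12.5% and 13.8%. Of 12 measured further genes of the AP-1 and small MAF families, 1 fell and 5 rose in −dox cells, and 1 fell and 6 rose in +dox cells (median 0.39 and 0.46, against 0.06 and 0.02 over all genes). Maff, a small MAF protein without an activation domain, fell in both states (changes -1.57 and -2.80, adjusted p = 0.0082 and 2.0e-04 from limma). Atf3, a stress-induced AP-1 factor, rose by 3.53 and 2.21 (adjusted p = 9.6e-05 and 9.2e-04). Fosl2, which encodes FRA2, rose by 1.44 and 1.26 (adjusted p = 1.0e-04 and 1.3e-04), opposite to Fosl1, and like Junb it was lower with dox under DMSO (change -0.67, adjusted p = 0.024) and under trametinib (-0.85, adjusted p = 0.0094). Among 3 further EGR and NAB genes, 1 was lower with trametinib in −dox cells and 0 in +dox cells (limma, 0 also at an unadjusted p under 0.05). Nab2, a corepressor of EGR proteins, fell by 0.92 in −dox cells (adjusted p = 0.014) and was lower with dox under DMSO (change -0.97, adjusted p = 0.031).

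Upstream of the members, 1 of 6 measured genes of SRF and its cofactors fell and 1 rose in each cell state. Elk3, an ETS factor that can repress Fos, fell (changes -0.48 and -0.83, adjusted p = 0.023 and 9.0e-04 from limma), and Elk1 rose (0.98 and 0.96, adjusted p = 5.9e-05 and 3.7e-05). Of 30 other immediate early genes 9 fell and 7 rose in −dox cells, and 12 fell and 7 rose in +dox cells, so these genes moved both ways (median -0.32 and -0.23). Phlda1 had changes of -3.09 and -3.53 (adjusted p = 7.3e-05 and 2.0e-05), and Errfi1, a feedback inhibitor of EGF receptors, changes of -2.74 and -2.31 (adjusted p = 4.8e-05 and 7.1e-05). Arc, known from neurons, fell by at least 1.48 in −dox cells into background. In the same cells Klf2 rose by 2.08, Rhob by 1.88 and Klf6 by 1.66 (adjusted p = 8.0e-05, 7.8e-05 and 4.2e-05). With dox under DMSO 6 of the 30 were lower and 0 higher, against 3.28% and 2.87% of all genes. At an unadjusted p under 0.05, for which no share of all genes was counted, limma gave 5 higher. Among the 6 were Nfkbiz with -1.82, Zfp36 with -1.10 and Errfi1 with -1.06 (adjusted p = 0.027, 0.03 and 0.028).

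ERK feedback genes, a direct readout of the same pathway, fell in 10 of 11 cases in each state (median -2.88 and -2.93). Under trametinib 5 of the 11 were higher in +dox than in −dox cells, against 1.95% of all genes, while the members counted 0 higher there. Of the 5, Spred2 was higher by 1.21, Spry2 by 1.06 and Spred1 by 1.05 (adjusted p = 0.0025, 0.011 and 0.0079 from limma), all inhibitors of RAS signalling.

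Downstream of MYC, 16 of 24 measured target genes were called lower without dox and 20 with it, and 0 rose in either (limma, 0 also at an unadjusted p under 0.05), with medians of -0.80 and -1.12. Fbl, a ribosomal RNA methyltransferase, had changes of -1.65 and -1.95, and Nop16, a nucleolar protein, of -1.40 and -2.03 (adjusted p = 7.7e-05, 1.8e-05, 5.6e-05 and 5.2e-06 from limma). With dox under DMSO 9 of the 24 were higher and 0 lower (0 also at an unadjusted p under 0.05), against 2.87% and 3.28% of all genes. Among the 9 were Srm with 1.04 and Odc1 with 1.08, both of polyamine synthesis (adjusted p = 0.0097 and 0.032), and Gnl3 with 0.88 (adjusted p = 0.0087). Under trametinib 0 of them differed between the states in either direction (limma, 1 lower and 2 higher at an unadjusted p under 0.05). Of the 11 measured genes of the MYC network 1 fell and 3 rose in −dox cells, and 0 fell and 2 rose in +dox cells (limma, 0 lower also at an unadjusted p under 0.05). Mxd4, an antagonist of MYC, rose by 1.04 and 1.68, and Max, its partner, by 0.61 and 1.27 (adjusted p = 0.0011, 4.3e-05, 0.018 and 2.0e-04).

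Downstream of AP-1, 1 of 11 measured target genes fell and 2 rose in −dox cells, and 2 fell and 1 rose in +dox cells (median 0.05 and 0.00). Ccnd1, cyclin D1, had changes of -3.51 and -2.33 (adjusted p = 7.6e-06 and 3.8e-05 from limma), and Plaur, the urokinase receptor, a change of -1.42 in +dox cells (adjusted p = 0.0043). Il6, a cytokine, rose by 5.04 and 3.21 (adjusted p = 0.0034 and 0.03), and Timp1, a protease inhibitor, by 0.92 in −dox cells (adjusted p = 0.0011).

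**Figure D5:**
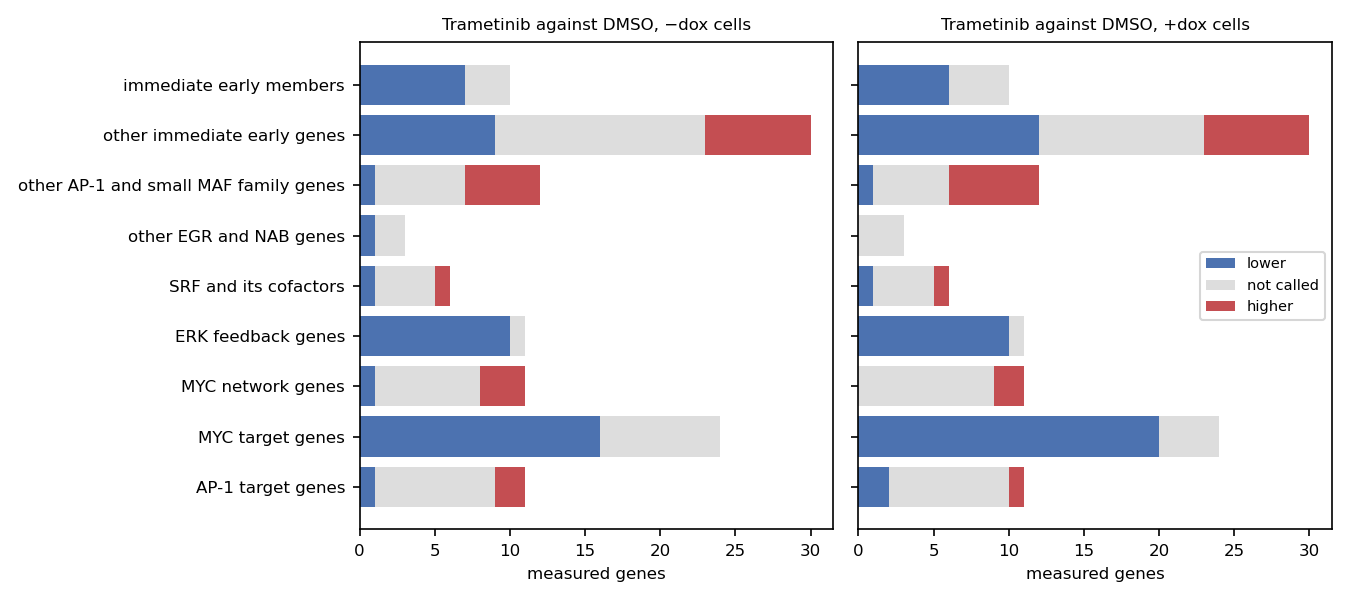
Number of measured genes called lower, not called and called higher with trametinib in −dox (left) and +dox cells (right), for the members and the lists around them, at an adjusted p under 0.05. Of the members 7 and 6 are lower and 0 higher, against 9 and 12 lower and 7 higher among 30 other immediate early genes.

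Among 12453 genes above background in at least 1 group, those whose pattern over the 12 arrays was most like the mean of the 10 members, by Pearson correlation, were Hdac3 (0.959), Arc (0.957), Afmid (0.950), Btg2 (0.949) and Spns2 (0.945). Each member was first centred and scaled over the arrays, and the correlation does not weigh the size of a change. Hdac3 moved little, with group means of 10.04, 9.67, 9.90 and 9.58 in −dox DMSO, −dox trametinib, +dox DMSO and +dox trametinib cells. In the same order Arc had group means of 6.35, 4.0, 5.63 and 4.06, and Btg2 of 9.43, 7.49, 8.47 and 7.38. Etv5 and Dusp6 (both 0.995) and Rasa3 (0.988) were most like Egr1. Most like Fosl1 were Eif3d (0.989), Wdr36 (0.985) and Nop14 (0.982), and most like Myc were Fbl (0.992), 2010204K13Rik (0.991) and Cdca7 (0.990). These values describe arrays that share groups of drug and dox, and carry no test.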

How the data were processed

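RNA of C790 cells (12 samples, 4 groups of 3) was hybridised to Affymetrix Mouse Genome arrays. The authors normalised the array files by RMA in Chipster, and the deposited values are log2 intensities per probe set, used as they are. RMA puts all arrays on a common distribution, so a shift of all genes is not visible. The version of Chipster is not given in the sources used here, there are no detection calls, and the number of arrays limits the precision. Groups come from the sample labels. Nothing there says that replicates were separate cultures, so p-values measure the spread between these arrays, which may be technical.

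Of 45101 probe sets, 64 controls, 9160 without a gene and 932 with several genes were left out. Gene names are those of the GEO platform annotation, which can be old, and 99.4% of its Entrez identifiers matched the reference table. The gene value was the probe set with the highest mean, with no filter on low values. A fit with a mean per group was made with limma 3.58.1 in R 4.3.3 (lmFit, eBayes) over all 18193 genes and adjusted by Benjamini-Hochberg within each comparison. Shares of all genes called were taken at the adjusted threshold only. The fit was tested on simulated data. Shares of the sum of squares come from a balanced decomposition by drug, dox, both and the rest. The cores TGACG and CCGGAA and the CArG box were searched on both strands. The plots used matplotlib 3.10.9 (Python 3.11.15).

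Deviations of same-numbered arrays from their groups' means correlated at 0.16 to 0.45 for trametinib in +dox cells and 0.02 to 0.46 in −dox cells. For dox they correlated at 0.17 to 0.34 under DMSO and 0.21 to 0.29 under trametinib. The labels do not say whether same-numbered arrays belong together. The main tests did not pair arrays, and the replicate number entered only as a block among the alternatives. Alternatives were the replicate number as a block, only the compared arrays, averaged or separately tested probe sets of a gene, genes above background, a further quantile normalisation, centred arrays, a trended robust eBayes, weights for the arrays, other thresholds and leaving out each array. The members and lists were chosen with earlier results of these data known. Named are all members with their other probe sets. From each list up to 3 genes lower and 3 higher with the largest change and arrays apart could be named, together with the genes most alike in pattern. The exchange of the Egr3 probe set and the background levels at other percentiles were added after seeing the data. Some genes of the lists are not analysed here.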

Additional observations from a re-analysis of the deposited data

Results flagged for a closer look

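The fitted change of Egr2 with trametinib differed between the cell states by 2.63 on the log2 scale (+dox minus −dox, 95% confidence interval 1.65 to 3.62, adjusted p = 0.039 from limma). Egr2 fell in both states to means of 4.33 and 4.69, under the background level, from 8.83 in −dox and 6.56 in +dox cells, so both falls are bounds and the value largely restates the DMSO difference of -2.27; it does not show that the responses differ. Across the 12 fits that left out an array it ranged from 2.25 to 2.88, and 3 of them kept the call.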

How the results depend on the processing

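Of 1040 changes of members recomputed under the alternatives, 990 kept their side of the threshold, 26 no longer passed and 24 newly passed. The fitted sign turned in 23 of them, in changes of at most 0.43 on the log2 scale, and in 0 that passed in either fit. With single arrays left out, members called with trametinib numbered 5 to 7 lower and 0 higher in −dox cells, and 6 to 7 lower and 0 to 1 higher in +dox cells. With dox they numbered 3 lower and 0 to 1 higher under DMSO, and 0 to 1 lower and 0 higher under trametinib. For the difference of responses they numbered 0 to 1 in each direction. In −dox cells 6 were lower with centred arrays, 8 with array weights and 5 at an adjusted p under 0.01. The arrays behind these ranges are named beside the members. The replicate block raised the count of higher members in +dox cells to 1 (Junb), as did a fit of the compared arrays alone (1), genes above background alone (1) and array weights (1), and the block changed no other call. Under DMSO the count higher with dox was 1 with compared arrays alone (Myc), 1 with arrays centred on their median (Fosl1) and 2 with array weights (Fosl1 and Myc), where 5 were lower. Array weights gave a difference of responses in 1 member lower and 2 higher. The count of higher differences was 0 with the mean of probe sets, 0 with probe sets one by one and 0 at an adjusted p under 0.01. With probe sets one by one, 1 member (Jun) was higher with trametinib in −dox cells. The count lower with dox under trametinib was 0 with a fold change over 2 and 0 at an adjusted p under 0.01. The mean of both Egr3 probe sets changed by -3.04 and -2.35 with trametinib in −dox and +dox cells, and the exchange of the Egr3 probe set, chosen after seeing the data, gave 8 and 7 lower members. With background at the 90th or 99th percentile of the receptor genes (4.61 or 5.42), the bound of Egr2 in −dox cells was 4.22 or 3.41. At 5.42 the −dox falls of Egr1 and Fosl1 were bounds as well, of 7.39 and 1.99. The cause of these changes was not tested. At the level of 4.87, signals near background limit Egr2, Egr3 and Fosl1 under trametinib to bounds.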
